A study of Mytilus galloprovincialis with 8 samples.

Results

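H2AZ was represented on the mussel oligonucleotide array by 1 probe of 51300, CUST_51300_PI427859148, which was the only probe whose name began with H2AZ. It was printed as 1 spot per array, at row 230 and column 118, and was read on all 8 arrays. No further probe carried a histone in its name. The probes with other names came from assembled contigs (19188, 17037 and 15070 probes from 3 contig sets, and 4 from contigs with other names), and the files do not pair these contigs with genes.

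H2A.Z is a variant of histone H2A that replaces the canonical protein in some nucleosomes, the units of DNA wound around histones that make up chromatin. In the animals and yeasts where it has been studied, it is enriched in nucleosomes that flank transcription start sites, and it is exchanged into chromatin by remodelling complexes outside DNA replication. Unlike the canonical histones, whose messages are made mostly during DNA replication, variants of this kind are generally transcribed throughout the cell cycle from polyadenylated messages.

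The samples were adult Mytilus galloprovincialis, a marine mussel, collected outside a dinoflagellate bloom and divided between 2 groups. The exposed mussels received the okadaic acid producer Prorocentrum lima for 24 h, and the control mussels did not. Both groups were fed the microalgae Tetraselmis suecica and Isochrysis galbana. The labels give the dose as 200 cells/ml, while the published methods give the same figure per litre, and the unit could not be settled here. Okadaic acid, the toxin behind diarrhetic shellfish poisoning, inhibits serine/threonine protein phosphatases. RNA was extracted from digestive gland, the organ that processes ingested food, and from gill, the organ that filters particles from seawater. Each RNA came from the pooled tissue of 5 mussels. Each array compared an exposed pool in one dye (Cy3 or Cy5) with a control pool in the other, and a second array compared the same extracts in the opposite dyes (dye swap). The arrays of a dye swap were counted as 1 replicate, so that each tissue had 2 replicates. The p-values therefore rest on the spread between these pools, which limma moderates with the spread of all probes. Nothing in the labels states that pools with the same number in both tissues came from the same animals. Because the contigs have no gene names here, the labelled tissues could not be checked against marker genes.

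The H2AZ spot was well above background in 16 of 16 channels, was saturated on 0 arrays and had 0 outlier marks. Its median signal was 50.5 to 196 times the local background. The share of spots well above background in both channels of an array was 51.7% to 57.4% in digestive gland, against 37.0% to 39.6% in gill. All 8 arrays came from 1 slide and 1 scan. The digestive gland arrays occupied one row of the slide and the gill arrays the other, so that slide position and tissue cannot be told apart. One digestive gland array, replicate 2 with the exposed RNA in Cy3, has its other dye recorded as Cy6, taken here to mean Cy5. With the ratio turned accordingly, its correlation across bright probes with the remaining arrays of that tissue was 0.649 to 0.848.

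Before normalization, the H2AZ spot of digestive gland replicate 1 had a background-subtracted intensity of 1564.5 in the exposed pool and 12647.5 in the control pool with the exposed RNA in Cy3. With the exposed RNA in Cy5, the same pools gave 3693.5 in the exposed pool and 2795 in the control pool. Digestive gland replicate 2 gave 2914 in the exposed pool and 9789 in the control pool with the exposed RNA in Cy3, and 5966 and 2942 in the exposed and control pools with the dyes exchanged. In this tissue the pool labelled with Cy5 was thus the brighter one on all 4 arrays, so the direction of a single array depended on the correction for dye. The raw log2 ratios, averaged over each dye swap, were -1.31 in replicate 1 and -0.36 in replicate 2.

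In gill replicate 1, the exposed pool was the brighter one with either dye. Its intensity was 3618 against 3069 in the control pool with the exposed RNA in Cy3, and 5000 against 1261 in the control pool with the exposed RNA in Cy5. In gill replicate 2, the exposed pool had 1479 against 2996.5 in the control pool with the exposed RNA in Cy3, and 3595 against 1377 in the control pool with the exposed RNA in Cy5. There the brighter pool changed with the dye, as in digestive gland. The raw dye-swap means were 1.11 in replicate 1 and 0.18 in replicate 2.

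The first comparison asked whether the H2AZ transcript differed between exposed and control mussels in digestive gland. After loess normalization within arrays, H2AZ was lower in the exposed pools on all 4 arrays, by more than 2-fold. The log2 ratio of exposed over control was -1.13 and -1.22 on the arrays of replicate 1, and -1.06 and -1.15 on those of replicate 2, with the exposed RNA in Cy5 given first in each pair. Replicate 1 averaged -1.17, a level 2.26-fold lower in the exposed pool, and replicate 2 averaged -1.11, a level 2.16-fold lower. The replicates differed by 0.066, and 63.2% of all probes differed by at least as much. This closeness held with loess: the replicates were at -1.30 and -0.66 with median centring and at -1.29 and -0.36 with no normalization within arrays, gaps of 0.64 and 0.93 that 9.31% and 9.28% of all probes reached.

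**Figure D1:**
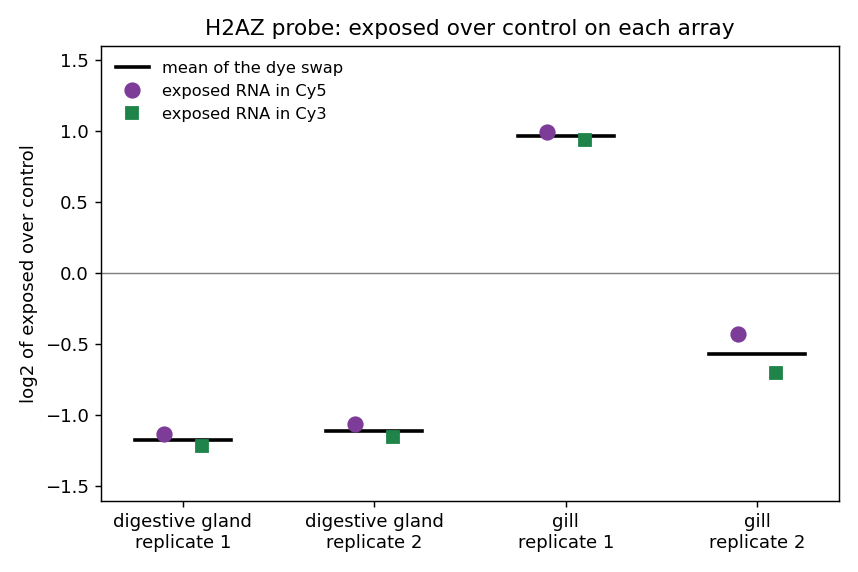
Log2 ratio of exposed over control for the H2AZ probe (vertical axis) on each of the 8 arrays, grouped by tissue and replicate. Circles are arrays with the exposed RNA in Cy5, squares arrays with it in Cy3, and bars the mean of each dye swap. The digestive gland values lie between -1.22 and -1.06, gill replicate 1 lies at 0.94 and 0.99, and gill replicate 2 at -0.70 and -0.43.

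In the fit of both tissues, the digestive gland mean was -1.14 (SE 0.38, n = 2), with a 95% confidence interval of -2.20 to -0.078, or 2.21-fold lower in exposed mussels. The unadjusted p from limma was 0.0407 and the Benjamini-Hochberg adjusted p over 51228 probes was 0.140, so that H2AZ was not among the probes called at 0.05, which were 17.8% of those tested. This fit takes 1 spread from both tissues, and with loess the SD between replicates was 0.046 in digestive gland and 1.08 in gill. With digestive gland fitted alone, the same mean had an SE of 0.053, a 95% confidence interval of -1.30 to -0.98 and a limma adjusted p of 0.00817, in a fit that called 13.2% of the probes. Leaving out either gill replicate gives that same fit, since 1 gill value adds nothing to the spread. Fitted alone, digestive gland had a mean of -0.98 with median centring (SE 0.18, limma adjusted p = 1.54e-06). That SE is smaller than the 2 pools alone give (SD 0.45), since limma draws the spread towards that of all probes. This p therefore does not measure the spread between the pools for H2AZ. With no normalization within arrays, the mean fitted alone was -0.82 (SE 0.30, limma adjusted p = 0.533) and was not called. In size, the value of H2AZ exceeded those of 97.1% of the probes tested, and 1.09% of the probes lay as low or lower. The 4444 probes that fell in digestive gland had a median log2 ratio of -0.51, and 508 of them (11.4%) fell further than the value of H2AZ. In pooled tissue, fewer cells of a type and less RNA per cell cannot be told apart.

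The same question in gill received different values from the 2 replicates. In gill replicate 1, H2AZ was higher in the exposed pool, with log2 ratios of 0.99 and 0.94 and a mean of 0.97, or 1.95-fold. In gill replicate 2, it was lower in the exposed pool, with log2 ratios of -0.43 and -0.70 and a mean of -0.57, or 1.48-fold lower. The gill replicates thus lay on opposite sides of the control, except that replicate 2 took a value of 0.093 with median centring in place of loess and of 0.18 with no normalization within arrays. The gill mean was 0.20 (SE 0.38, n = 2), with a 95% confidence interval of -0.86 to 1.26 and a limma adjusted p of 0.939 over 51282 probes. The test called 15 of these probes, or 0.0293%, against 7320 at an unadjusted p under 0.05. The interval spans changes of more than 2-fold in the upward direction, and the data do not show that H2AZ stayed level in gill.

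With loess, the replicates of H2AZ were further apart in gill than those of nearly every other probe. They differed by 1.53 on the log2 scale, against 0.99 with median centring in place of loess and 0.91 with no normalization within arrays, gaps that 2.48% and 4.35% of all probes reached under those settings. With loess, 172 of 51282 probes (0.335%) differed by 1.53 or more, as did 96 of 16745 bright probes (0.573%), those well above background in both channels of every array. In 53 probes (0.103%), H2AZ included, the gill replicates had opposite signs and both were at least as large as the smaller of the H2AZ values, that of replicate 2. Across probes, which are not independent replicates, the ratios of replicates 1 and 2 correlated at 0.912 in digestive gland and at 0.485 in gill.

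**Figure D2:**
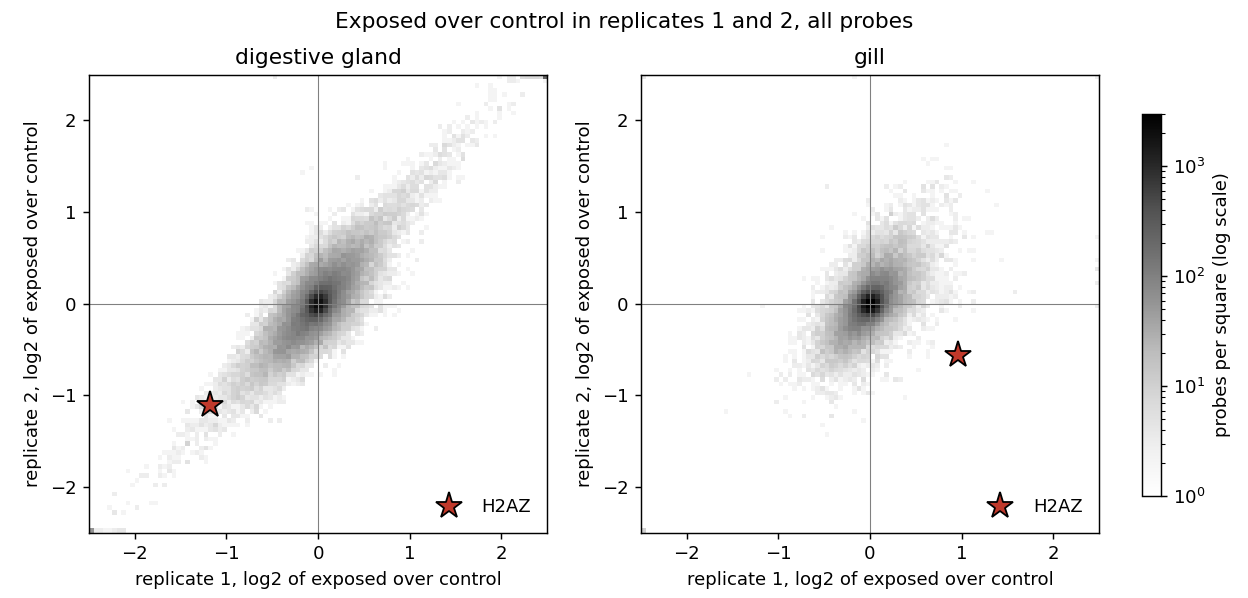
Log2 ratio of exposed over control in replicate 1 (horizontal axis) against replicate 2 (vertical axis) for all probes in digestive gland (left) and gill (right). Shading gives the number of probes per square on a log scale, values beyond 2.5 are drawn at the edge, and the star is H2AZ, which lies within the cloud in digestive gland and apart from it in gill at 0.97 and -0.57.

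Technical repeats of the same extracts were also read, which leave out the spread between pools. The arrays of a dye swap differed for H2AZ by 0.090 and 0.089 in digestive gland replicates 1 and 2, by 0.054 in gill replicate 1 and by 0.27 in gill replicate 2. A gap larger than that of gill replicate 2 was found in 19.8% of the probes. H2AZ itself had no repeated spot. Among probes of like brightness printed as 2 spots (134 to 377 per array, within 1 log2 unit of H2AZ), the repeated spots of an array had log2 ratios that differed by a median of 0.052 to 0.080, with a 95th percentile of 0.16 to 0.23.

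The difference between the tissues in their response was tested directly. The log2 ratio was lower in digestive gland than in gill by 1.34, given as digestive gland minus gill of -1.34 (SE 0.54, 95% confidence interval -2.84 to 0.16). The limma adjusted p was 0.239 over 51210 probes, of which 9.68% were called. Both digestive gland replicates lay 0.54 or more below gill replicate 2, and the ratios of the tissues did not overlap in 54.7% of all probes. Without gill replicate 2 the difference was -2.11, and without gill replicate 1 it was -0.58, so the size of the difference rested on which gill pools were used. With 1 gill pool left, these fits hold no spread between gill pools, and no p is given for them.

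To see which pools carried these ratios, the channels of each array were also read separately, as log2 levels after Aquantile normalization between arrays, which gives every array the same distribution of average brightness. In digestive gland, the exposed pools had log2 levels of 10.14 and 10.20, against 11.31 and 11.31 in the control pools. Exposed and control pools did not overlap, as was so for 61.1% of all probes in this tissue. The exposed pools differed by -0.057 and the control pools by 0.0085, as replicate 1 minus replicate 2, gaps that 55.8% and 91.5% of all probes reached, and with no normalization between arrays by -0.35 and -0.28. In gill, the exposed pools had log2 levels of 13.60 and 12.27, against 12.64 and 12.83 in the control pools. The exposed pool of replicate 1 lay above both gill control pools and that of replicate 2 lay below both. All levels were read after loess within arrays. With median centring or no normalization within arrays, the ratio of gill replicate 2 was above 0, as given above.

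**Figure D3:**
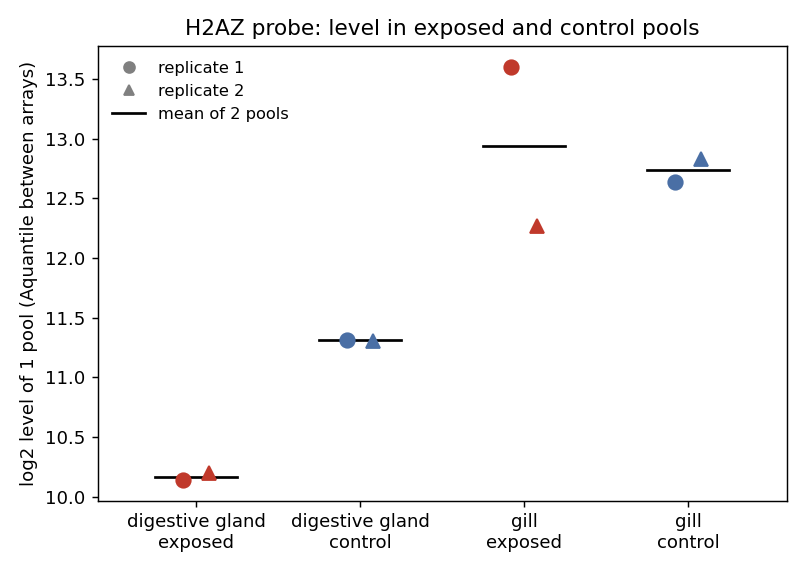
Log2 level of the H2AZ probe in each pool (vertical axis, after Aquantile normalization) for exposed and control mussels in each tissue. Circles are replicate 1, triangles replicate 2 and bars the mean of 2 pools. With loess within arrays, the exposed gill pools lie at 13.60 and 12.27, on either side of the gill control pools. Heights may be compared within a tissue, since the order of the tissues depends on the normalization between arrays.

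With loess within arrays, the spread in gill lay mainly among the exposed pools. Their log2 levels averaged 12.94 ± 0.95, against 12.74 ± 0.14 in the control pools (SD, n = 2 each). The exposed pools differed by 1.34, a gap that 0.628% of all probes reached, whereas the control pools differed by 0.19, a gap that 18.6% of all probes reached. Under the 4 normalizations between arrays, the exposed pool of replicate 1 exceeded that of replicate 2 by 1.18 to 1.34 on the log2 scale, and the control pool of replicate 1 lay below that of replicate 2 each time, by -0.35 to -0.18 as replicate 1 minus replicate 2. In digestive gland the levels averaged 10.17 ± 0.040 in the exposed pools and 11.31 ± 0.0060 in the control pools (SD, n = 2 each).

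The last comparison set the level of H2AZ in digestive gland against that in gill, and its direction was not settled by these arrays. The array was designed from digestive gland libraries, and the paper grants that it could lack transcripts specific to gill. The effect of this design on the tissue levels was not tested. In exposed mussels, digestive gland minus gill was -2.77 on the log2 scale after Aquantile normalization (SE 0.48, 95% confidence interval -4.11 to -1.42, limma adjusted p = 0.0150), or 6.81-fold lower in digestive gland, but 0.074 (adjusted p = 0.905) with no normalization between arrays. It was -1.49 (2.80-fold lower) with the 75th percentile of brightness set equal. This test called 43.2% of all probes. Without gill replicate 1 the value in exposed mussels was -2.10, or 4.28-fold lower in digestive gland, and without gill replicate 2 it was -3.44, or 10.8-fold lower. Without digestive gland replicate 1 the value in exposed mussels was -2.74, and without digestive gland replicate 2 it was -2.80. With 1 pool of a tissue left, these fits hold no spread between pools of that tissue, and no p is given for them. In control mussels, the difference was -1.43 after Aquantile normalization (SE 0.080, 95% confidence interval -1.63 to -1.22, limma adjusted p = 5.3e-05), or 2.69-fold lower in digestive gland, but 1.42 (adjusted p = 0.00173), the opposite direction, with no normalization between arrays. In control mussels, the test called 52.1% of all probes.

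The normalizations also moved the other probes, and Aquantile and quantile normalization moved dim and bright ones by different amounts. The median of all probes for digestive gland minus gill in exposed mussels was -0.075 after Aquantile, -0.076 after quantile normalization, -1.21 with the 75th percentile of brightness set equal and 0.35 with none. In control mussels it was -0.069, -0.068, -1.26 and 0.30 in the same order. The median of bright probes, in the same order, was -0.60, -0.59, -0.47 and 1.09 in exposed mussels and -0.56, -0.57, -0.45 and 1.11 in control mussels. Relative to the median of bright probes, H2AZ in exposed mussels was lower in digestive gland under all 4, by values of -2.17, -2.07, -1.02 and -1.02. In control mussels it was lower under Aquantile and quantile normalization (-0.87 and -0.95 relative to that median) and higher under the other settings (0.30 in both). Setting the 75th percentile equal shifts every probe of an array alike. Its values relative to that median therefore equal those with no normalization by construction, and are not a separate result. The share of the called probes that were higher in digestive gland was 39.0% in exposed mussels after Aquantile, against 15.3% with the 75th percentile set equal and 98.3% with none, and in control mussels 37.8%, 16.9% and 96.8%.

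**Figure D4:**
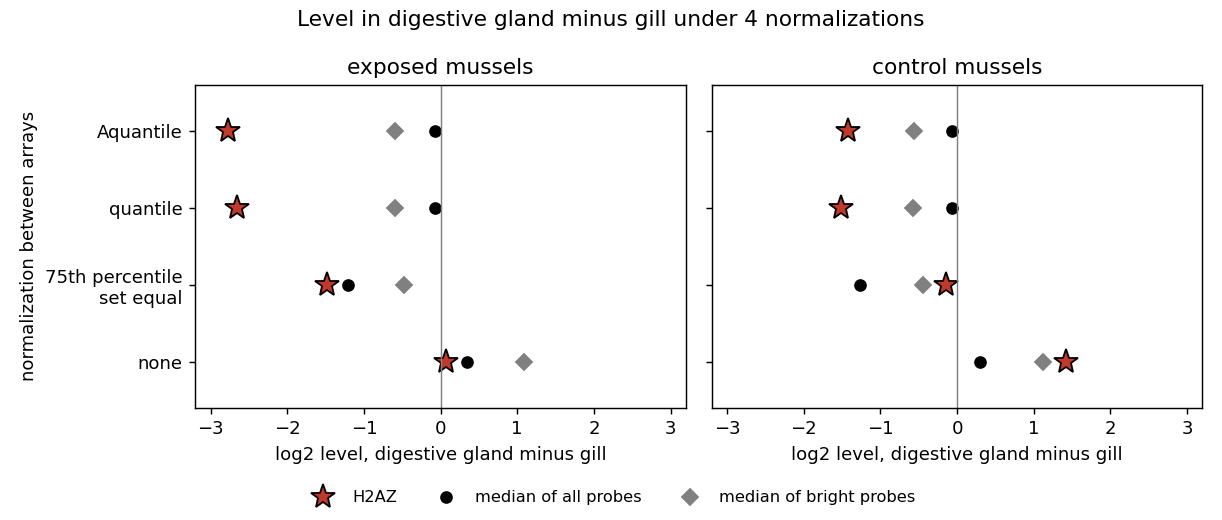
Log2 level in digestive gland minus gill (horizontal axis) in exposed mussels (left) and control mussels (right) under 4 normalizations between arrays (rows). Stars are H2AZ, circles the median of all probes and diamonds the median of bright probes. In control mussels H2AZ lies at -1.43 with Aquantile and at 1.42 with no normalization, on the other side of 0.

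Brightness ranks within a channel were taken before any normalization. In exposed pools, H2AZ was brighter than 93.9% to 94.5% of the spots in digestive gland, against 98.7% in gill replicate 1 and 97.7% in gill replicate 2. In control pools the ranges were 96.2% to 96.5% in digestive gland and 98.1% to 98.4% in gill. These ranks place the spot among the others of its channel and compare amounts of RNA neither between probes nor between tissues.

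The probes most like H2AZ were sought by the Pearson correlation of their log2 levels with its own over the 8 pools (exposed and control pools of each tissue), among 16696 bright probes with a value in every pool. The most alike was CUST_309_PI427859148 on contig cDNA_MGC_c309, at r = 0.995, and the next was CUST_51296_PI427859148 on contig NORM_MGT_mira_rep_c24010, at r = 0.994. The pools share arrays and fall into 2 tissues, so that a high r was common: 2674 of these probes reached 0.9, and the median was 0.780.

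The levels used to choose these probes include all pools of both tissues. A fall in digestive gland and a split between the gill replicates like those of H2AZ therefore came with the choice. The log2 ratio of exposed over control for cDNA_MGC_c309, a mean of 2 spots, was -1.22 and -1.25 in digestive gland replicates 1 and 2, and 0.98 and -0.64 in gill replicates 1 and 2. For NORM_MGT_mira_rep_c24010 it was -1.18 and -0.86 in digestive gland, and 1.23 and -0.39 in gill. Neither was called in digestive gland, with limma adjusted p of 0.132 and 0.201. Under 9 other settings the first probe ranked no lower than 4 and the second no lower than 7 among the bright probes, with r of 0.971 or more.

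**Figure D5:**
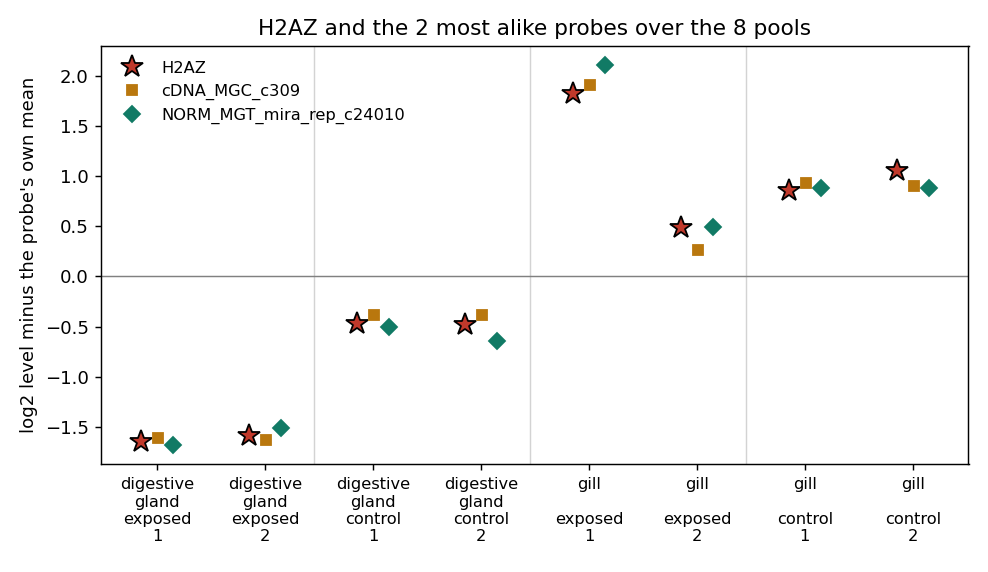
Log2 level of H2AZ and of the 2 most alike probes, each minus its own mean (vertical axis), in the 8 pools (horizontal axis). All 3 probes are lowest in the exposed digestive gland pools and highest in the exposed gill pool of replicate 1, with the order of the tissues as given by Aquantile normalization.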

How the data were processed

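Per the labels, the arrays were read with Agilent Feature Extraction 10.7.3.1, and the authors deposited its intensities, here used as the median and the local background of every spot in each channel. The authors also deposited log2 ratios (red against green) for all spots, whose processing is not given in the sources used here. Of 62976 spots, 61657 were no controls. Intensities were corrected with normexp (offset 50) and normalized with loess within arrays in limma 3.58.1 and R 4.3.3, without the spots marked as outliers. After averaging repeated spots, every ratio was expressed as exposed over control, and the arrays of a dye swap were averaged. The limma model held the 2 tissue means (2 residual degrees of freedom) and was fitted to all probes, with two-sided tests and Benjamini-Hochberg adjustment at 0.05. Levels were separate-channel values after Aquantile normalization, tested by the same fit. The number of arrays limits the precision. An exact permutation test of 2 against 2 pools cannot go below p = 0.333, and none was used.

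The probe and the lists were chosen with earlier results of these data known. The rule was to name every probe whose name begins with H2AZ, every probe naming a histone (0 were found) and the 2 probes most correlated with H2AZ. Alternatives changed the background correction, the signal, the filters, the normalization, the samples in the fit and the values (the deposited log2 table). The alternatives with no normalization within arrays, and with a tissue fitted alone under that setting or median centring, were added after the data had been seen. The fits were tested on simulated data.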

Additional observations from a re-analysis of the deposited data

How the results depend on the processing

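The digestive gland ratio stayed below 0 under all 20 alternatives (-1.17 to -0.82, limma adjusted p 1.54e-06 to 0.533). Its value cannot change with only bright probes, outlier spots kept, spot medians, arrays entered separately, the tissue alone or a gill replicate left out. Its sign there is no separate result. The ratio passed the threshold under 9. They included normexp with offset 10 and the deposited log2 table (both -1.15, adjusted p = 0.0249 and 0.0239). Digestive gland alone passed with median centring (-0.98, adjusted p = 1.54e-06) and with loess (-1.14, 0.00817), which leaving out either gill replicate repeats. Bright probes only (adjusted p = 0.0428) and separate arrays with the pair as random block (0.0101) or a dye effect (0.0368) passed at -1.14. The dye effect fit took an array and its swap as independent replicates. The random block lowered the SE from 0.38 to 0.26 with the same pools. These p, and that of digestive gland alone with median centring, do not measure the spread between pools. Leaving out a replicate gave -1.17 to -1.11 in digestive gland and -0.57 to 0.97 in gill (below 0 without replicate 1). The tissue difference was then -2.11 to -0.58. With all pools, it passed under the random block (-1.34, limma adjusted p = 0.0315), with the same limit. Why digestive gland replicate 2 moved with the normalization within arrays was not tested. H2AZ in gill was not called under any of 20 alternatives (adjusted p 0.140 to 1.00).

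The tissue level reversed with no normalization between arrays (exposed 0.074, control 1.42), and in control mussels was not called with the 75th percentile set equal (-0.15, adjusted p = 0.204). Leaving out a replicate gave -3.44 to -2.10 in exposed and -1.52 to -1.33 in control mussels. With the replicate number as a block (replicate block), the difference between the tissues in the ratio was -1.34 (adjusted p = 0.176), and the level differences were -2.77 (0.0183) in exposed and -1.43 (1.72e-05) in control mussels, so that no call changed. Same-numbered pools deviated together at correlations of 0.162, 0.0706 and 0.206 for the ratio, the exposed level and the control level, and with 2 pairs this does not establish a pairing.

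Over the alternatives, called probes numbered 0 to 14475 in digestive gland (reported fit 9104) and 0 to 4093 in gill (15). The difference had 0 to 11020 (4958), the exposed level 12481 to 45591 (22143) and the control level 14271 to 47904 (26667). The level minima are of 16697 bright probes, not 51210, so they are no smaller share. Where limma called 0 probes, 5088 in digestive gland (1 alternative) and 3989 for the difference (1) had an unadjusted p under 0.05. In gill it was 1633 to 10056 (8). Median centring moved the share of called probes that rose in digestive gland to 64.3%, against 51.2% in the reported fit.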

Other observations

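The 4-part pattern of H2AZ was looked for among the 51210 probes with a ratio in every replicate, at a size of 0.5 on the log2 scale chosen after its values had been seen. Both digestive gland replicates were at or below -0.5 in 2024 probes. The gill replicates were at or above 0.5 in replicate 1 and at or below -0.5 in replicate 2 in 45 probes, and the other way round in 33. Of the 2024 probes low in digestive gland, 21 had the gill pattern of H2AZ and 13 the opposite gill pattern. The 21 comprised 10 of the 17037 cDNA_MGC probes on the array, 4 of the 19188 cDNA_MGT probes and 5 of the 15070 mgt200.forw probes. Of the 5 probes outside these contig sets, they held H2AZ and 1 other, CUST_51297_PI427859148 on contig NORM_MGT_mira_rep_c12226. Its log2 ratios were -1.25 and -0.83 in digestive gland and 0.99 and -0.62 in gill. The remaining probes of these 5 had the signs of H2AZ in every replicate, but missed the cut of 0.5 in at least 1 of them. Among them was the second most alike probe, on contig NORM_MGT_mira_rep_c24010, at -0.39 in gill replicate 2. Some of the signs rest on values near 0, as on contig SSH_REV_mira_rep_c8291, at -0.13 in digestive gland replicate 2 and 0.12 in gill replicate 1. The share of all probes with these signs was not counted, so the shared signs are no result about these probes. These contigs have no gene names here.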
